A study of Homo sapiens with 8 samples.

Results

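Transfection of miR-29a-3p into lung cancer cells was followed by a change in the same direction in both cell lines for 1617 genes, out of 14635 genes tested and 31461 in the deposited table. Of these, 884 were lower and 733 were higher than with a control microRNA. A gene was counted as shared where it passed a Benjamini-Hochberg adjusted p under 0.05 in 1 limma model of all 8 libraries, with the line as a covariate, and where the difference had the same sign in each line. The lower genes made up 6.04% and the higher genes 5.01% of the genes tested, and these shares come from the test that chose the genes. The model has no term for a response that differs between the lines, so unlike responses count as its spread, and none of the genes it called had opposite signs in the lines.

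A microRNA is a short RNA that guides an Argonaute protein to messenger RNAs. It pairs through its seed, a few bases near its 5′ end, mostly with matches in 3′ untranslated regions, and it lowers the bound messengers by decay and reduced translation. The miR-29 family is known for acting on collagens, other proteins of the extracellular matrix and enzymes of DNA methylation, and its members are often low in fibrosis and in lung tumours. Interferon-stimulated genes, several of which are among the higher genes here, encode proteins of the antiviral response.

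The study measured RNA of the human lung cancer lines A549, from an adenocarcinoma, and H1299, from a large cell carcinoma, in a search for genes that miR-29a-3p may target. Each line had 2 libraries with a control microRNA and 2 with miR-29a-3p, which gave 4 groups, and all carried the genotype label WT. Nothing in the labels says whether the 2 libraries of a group are separate cultures, and p-values therefore reflect a spread between libraries that may be technical. Levels are given as FPKM, fragments scaled for transcript length and library depth, and differences as miR-29a-3p minus control on the log2(FPKM + 1) scale, where the added 1 makes changes of low genes look smaller than they are. The level of miR-29a-3p itself was not analysed here.

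The libraries held an estimated 12221310 to 15614821 fragments, with 12021 to 12837 genes at 1 FPKM or more. For a transcript of 2 kb, 1 FPKM then stood for 24 to 31 fragments. Line markers lay opposite to the labels. CDKN2A, which A549 cells lack through a known deletion, was at 23.8 to 28.4 FPKM in the libraries labelled A549 and at 0.0513 to 0.112 in those labelled H1299. The summed level of 8 genes that are typically high in A549 was 189 to 198 FPKM under the A549 label. Under the H1299 label it was 1250 to 1280 in the controls and 2690 to 2770 with miR-29a-3p. The lines are therefore called A549-labelled and H1299-labelled, and the direction shared by both does not depend on which line is which. Keratins KRT8 and KRT18 were at 16.6 FPKM or more in every library, while the epithelial marker EPCAM was at or below 0.135. Fibroblast and endothelial markers were low: the summed level of 8 fibroblast markers stayed at or below 4.05 FPKM and that of 6 endothelial markers at or below 0.432. The table held 7 of 8 leukocyte markers, with a summed level of 19.2 to 23.9 FPKM in the A549-labelled libraries. In the H1299-labelled ones their sum was 9.29 to 9.48 in the controls and 25.8 to 27.1 with miR-29a-3p. Of 8 leukocyte markers, CD68 carried most of the sum, PTPRC, the pan-leukocyte marker, was at or below 0.00675, and ITGAM was among the shared higher genes (a call lost without 7 of the 8 single libraries, adjusted p 0.061 to 0.11), at 0.55 to 0.877 FPKM in the control and 1.09 to 1.34 in the miR-29a-3p libraries over both lines.

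The seed that the shared lower genes can be searched for is the same in the 3 main members of the family. Their mature sequences, from the RefSeq table for GRCh38.p14, are shown with the seed, bases 2 to 8, in capitals.
hsa-miR-29a-3p: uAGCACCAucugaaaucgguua
hsa-miR-29b-3p: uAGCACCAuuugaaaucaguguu
hsa-miR-29c-3p: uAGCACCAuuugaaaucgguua
miR-29a-3p lies on the minus strand at chr7:130876748-130876769. A 7mer-m8 site is the full complement of the seed, TGGTGCT, an 8mer is that complement followed by an A, a 7mer-A1 is its last 6 bases followed by an A, and a 6mer is those 6 bases alone. Sites were read from the longest annotated 3′ UTR of each gene in GENCODE release 29, on GRCh38.

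The sites of 10 shared lower genes are shown because these genes had the clearest decreases or stand for a matrix gene group described later. Each line gives 22 bases of the 3′ UTR, 5′ to 3′ on the transcript, with the part that matches the seed in capitals.
RCC2: gatatttagttcagTGGTGCTt
CDK6: ctggcttgtccacaTGGTGCTc
CLDN1: ctggatttgagtctTGGTGCTA
KRT80: aagagggtgctgatTGGTGCTt
CAVIN1: gggacaaggtccctTGGTGCTg
COL5A2: ttttcctttaatgaTGGTGCTA
PMP22: acaagtctttgaaaTGGTGCTA
VAMP7: aattgtaatgatgtTGGTGCTg
LAMC1: attatctgacacacTGGTGCTA
P3H1: cacagccttctacaTGGTGCTA
The sites of RCC2 (chr1:17407795-17407816), CDK6 (chr7:92606426-92606447), CLDN1 (chr3:190306632-190306653), KRT80 (chr12:52169784-52169805), CAVIN1 (chr17:42402566-42402587), COL5A2 (chr2:189032873-189032894), PMP22 (chr17:15230233-15230254) and P3H1 (chr1:42746545-42746566) are on the minus strand. Those of VAMP7 (chrX:155942430-155942451) and LAMC1 (chr1:183144239-183144260) are on the plus strand. CLDN1, COL5A2, PMP22, LAMC1 and P3H1 carry 8mers, and the other genes of this set 7mer-m8 sites.

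Most shared changes were small. The median difference of the lower genes was -0.47 over both lines, with -0.36 in the A549-labelled and -0.55 in the H1299-labelled libraries. For the higher genes the medians were 0.44, 0.33 and 0.53. A difference of at least 2-fold on the averaged log2 scale was found for 45 lower and 27 higher genes, and in each line taken alone for 14 lower and 6 higher genes. Within both lines the miR-29a-3p and control libraries did not overlap for 1614 of the 1617 genes, beside 3929 of all genes tested, or 26.8%. These counts come from the libraries that chose the genes and are given as a description. Protein-coding genes made up 1436 of the shared genes, pseudogenes 81, and lincRNA or antisense genes 68. At the edge of the threshold, among protein-coding genes at 5 FPKM or more, KLHL18 was the last inside with a difference of -0.45, and CSAG2 the first outside with 0.28.

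**Figure D1:**
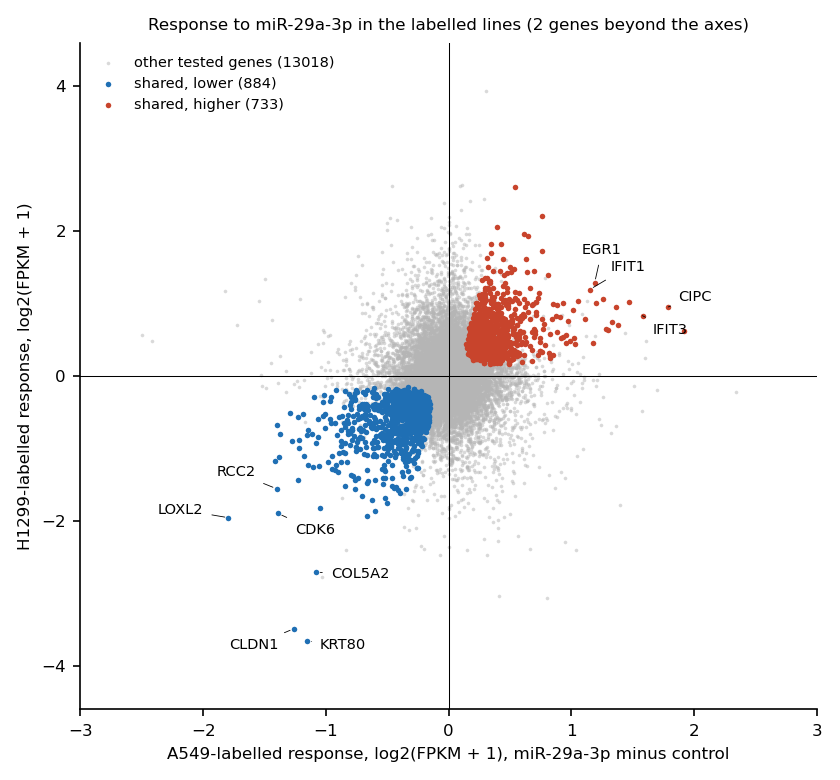
Each point is 1 of 14635 tested genes, with its response in the A549-labelled libraries on the x axis and in the H1299-labelled libraries on the y axis, both as miR-29a-3p minus control on the log2(FPKM + 1) scale. The 884 shared lower genes (blue) and 733 shared higher genes (red) fill the lower left and upper right, with LOXL2 at -1.79 and -1.96 and CLDN1 at -1.26 and -3.49, and 2 genes lie beyond the axes.

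The libraries of the lines could also be tested separately, in a model with a mean for each group. That model called 2336 genes in the A549-labelled libraries (16.0%) and 7312 in the H1299-labelled ones (50.0%). Genes called in each line in the same direction numbered 1026, or 7.01% of those tested, with 430 higher and 596 lower. The 430 higher genes were 40.3% of the A549-labelled and 11.7% of the H1299-labelled higher calls, and the 596 lower genes were 47.0% and 16.4% of the lower calls. A further 551 genes were called in each line in opposite directions, so 65.1% of the genes called in each shared a direction, beside 53.6% of all tested genes with the same sign. Of the 1617 shared genes, 995 were called in each line, and 17 in neither. The response itself differed between the lines for 563 of them, or 34.8%, beside 37.3% of all tested genes, and 495 of the 563 moved further in the H1299-labelled libraries.

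The counts depended on single libraries. Without 1 of the 8 libraries at a time, the lower genes numbered 312 to 660 and the higher genes 209 to 483, and the lowest of each, 312 and 209, came without the first H1299-labelled control library. A set of 448 shared genes, 272 lower and 176 higher, was called in all 8 of these fits.

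The leading genes named next, 15 lower and 15 higher, were ranked by the smaller of their changes in the lines and were required to have no overlap between treated and control libraries in either line. The lower ones held a matrix enzyme, cell cycle regulators, membrane proteins and organelle proteins. Among these 15, LOXL2 showed the largest decrease in the A549-labelled libraries (-1.79). In the H1299-labelled libraries KRT80 (-3.66), CLDN1 (-3.49) and COL5A2 (-2.71) fell further than LOXL2 (-1.96). LOXL2, a lysyl oxidase that cross-links collagen, was at 23.5 and 23.7 FPKM in the A549-labelled control libraries and at 5.93 and 6.26 with miR-29a-3p. In the H1299-labelled libraries it was at 108 and 103 in the controls and at 27.3 and 25.4 with miR-29a-3p. All 4 treated libraries lay far below the controls of their line, at 0.258 and 0.251 times the control mean. The averaged difference was -1.87 ± 0.063 (SE, 4 against 4 libraries), with an adjusted p of 8e-05.

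RCC2, a regulator of chromosome segregation, stood at 42.0 and 41.7 FPKM in the A549-labelled controls and at 15.2 and 15.2 with miR-29a-3p. Its H1299-labelled values were 30.7 and 30.8 against 9.83 and 9.66. The libraries of a group nearly coincided and the groups lay far apart, with an averaged difference of -1.48 ± 0.059 and an adjusted p of 0.00013. CDK6, the cyclin-dependent kinase that drives entry into S phase, was at 26.2 and 27.8 FPKM in the A549-labelled controls against 9.17 and 10.2. In the H1299-labelled libraries it was at 14.4 and 15.1 against 3.58 and 2.89. CDK6 thus fell in both lines, by 1.65 on the log2 scale (SE 0.12, adjusted p 0.00096), and further in the H1299-labelled line (adjusted p of the difference 0.024). OIP5, a centromere protein, fell by 1.14 on the averaged log2 scale, from 22.2 and 26 FPKM to 10.4 and 9.77 in the A549-labelled and from 3.95 and 4.17 to 1.68 and 1.06 in the H1299-labelled libraries.

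Other leading decreases were in genes of cell junctions, the cytoskeleton and membranes. CLDN1, the tight junction protein claudin-1, was at 11 and 11.6 FPKM in the A549-labelled controls and at 4.28 and 4.03 with miR-29a-3p. The H1299-labelled controls were at 132 and 132, and the treated libraries at 10.9 and 10.8. The decrease was therefore to 0.367 times the control mean in the first line and to 0.0823 times in the second, and the responses differed (adjusted p 3.4e-05). KRT80, a type II keratin, went from 15.9 and 15.3 to 6.50 and 6.41 FPKM in the A549-labelled libraries. Its H1299-labelled values were 43.4 and 43.8 against 2.95 and 2.14. Because such unlike responses count as spread, the averaged adjusted p was 0.015 for CLDN1 and 0.022 for KRT80, and both calls were lost without any 1 of the 4 H1299-labelled libraries (adjusted p 0.051 to 0.054 and 0.063 to 0.073).

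CAVIN1, a coat protein of caveolae, was at 135 and 140 FPKM against 64.8 and 61.7 in the A549-labelled libraries. In the H1299-labelled libraries it was at 101 and 94.1 against 39.7 and 40.8, so the fall of 1.18 ± 0.06 (log2, adjusted p 0.00041) was nearly equal in the lines. PMP22, a membrane protein best known from peripheral myelin, fell from 6.96 and 6.60 to 2.21 and 3.4 FPKM and from 13.1 and 14.2 to 3 and 3.27. Its response was larger in the H1299-labelled line (adjusted p of the difference 0.026). VAMP7, a SNARE protein of late endosomes and lysosomes, went from 13.1 and 13.8 to 6.57 and 6.38 FPKM and from 8.33 and 10.9 to 2.37 and 4.55. The second H1299-labelled treated library was the higher of its pair, and the averaged difference of VAMP7 was -1.12 ± 0.17 with an adjusted p of 0.0091.

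The other leading decreases were SERPINH1 and COL5A2, described with the collagen genes, and TIMM13, DDX49, CCDC167 and SGK1. TIMM13, a chaperone of mitochondrial protein import, was at 58.1 and 53.8 FPKM against 22.4 and 24.1 in the A549-labelled and at 24.9 and 24.7 against 8 and 9.03 in the H1299-labelled libraries. DDX49, an RNA helicase of ribosome assembly, was at 10.3 and 11 against 4.29 and 4.20 and at 3.69 and 4.12 against 0.947 and 1.23. SGK1, a serum- and glucocorticoid-induced kinase, was at 3.29 and 3.56 against 1.56 and 1.05 and at 4.25 and 5.99 against 2.04 and 1.59. The treated libraries of all 3 were lower in both lines, at averaged differences of -1.34, -1.19 and -1.03. CCDC167 fell by 1.25 on the averaged log2 scale.

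A seed match of the 8mer or 7mer-m8 kind was present in 10 of these 15 genes. The 5 without one were TIMM13 and OIP5, with a 6mer, SERPINH1 and DDX49, with a 7mer-A1, and SGK1, with no match. Of the 15 leading higher genes, 1 had such a match, SOD2.

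**Figure D2:**
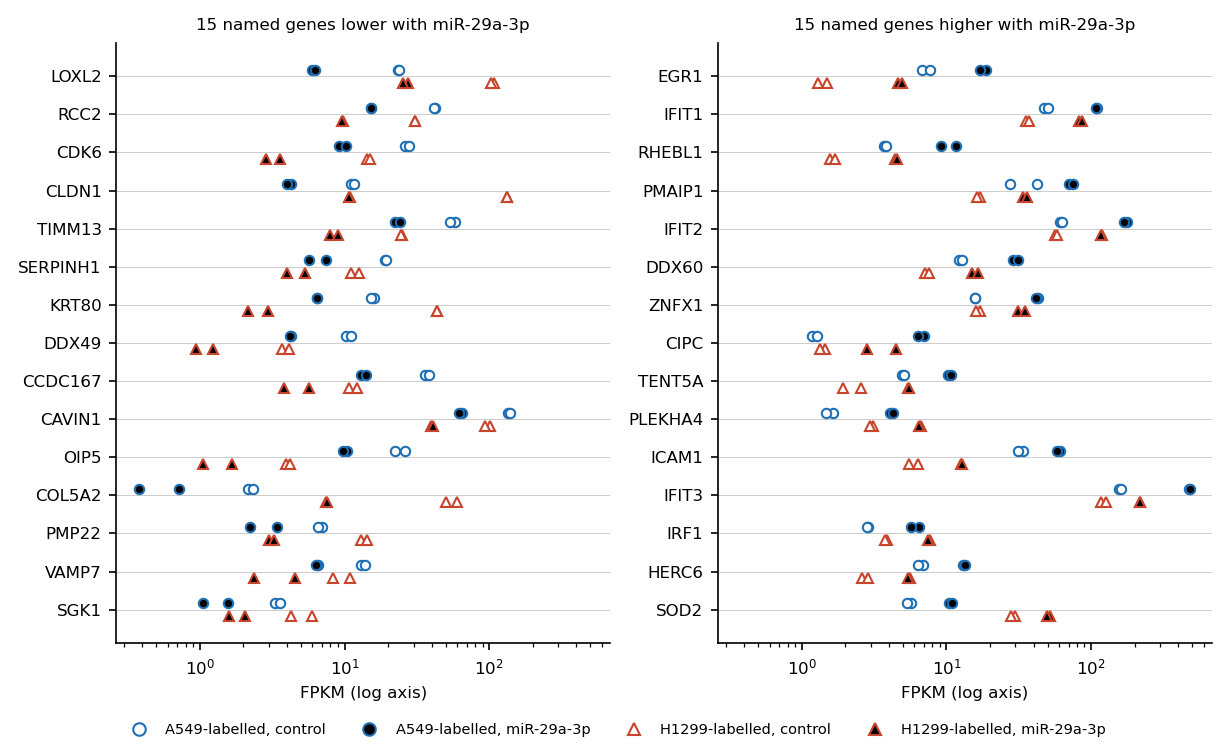
Every library's FPKM, on a log axis, for the 15 shared lower genes (left) and the 15 shared higher genes (right) that led by the smaller of their changes in the lines, with open symbols for control and filled symbols for miR-29a-3p libraries. The genes were chosen for having no overlap between the filled and open symbols of a line, for example LOXL2 at 5.93 and 6.26 against 23.5 and 23.7 in the A549-labelled libraries.

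Over all shared genes, seed matches followed the direction. An 8mer or 7mer-m8 match to miR-29a-3p was found in 322 of the 799 shared lower genes with an annotated 3′ UTR (40.3%), in 41 of 630 shared higher genes (6.51%) and in 1908 of 11632 tested genes (16.4%). Of the lower genes that changed at least 2-fold on the averaged scale, 25 of 42 held one (59.5%). The shared lower genes had longer 3′ UTRs than the higher genes, with medians of 1784 and 1109 bases, and per kilobase of UTR the sites numbered 0.219 in the lower, 0.0488 in the higher and 0.0993 in all tested genes. With the shortest annotated 3′ UTR of each gene the shares were 21.0%, 2.86% and 6.81%. Sequence was not used to choose the genes, and these shares are descriptions without a test.

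Other seeds gave flatter shares. For let-7a-5p a match was held by 11% of the lower, 12.9% of the higher and 10.9% of all tested genes, and for miR-21-5p by 10.4%, 8.89% and 9.90%. For miR-16-5p the shares were 28.9%, 25.1% and 24.9%. For miR-30a-5p they were 23.9%, 17.3% and 18.4%, and for miR-200b-3p 25.2%, 13.8% and 19.0%. The passenger strand miR-29a-5p gave 24.2%, 15.1% and 19.1%. Each of these seeds apart from let-7a-5p was held more often by the lower genes, which have the longer UTRs, than by the higher genes. The widest gap among them, 25.2% against 13.8% for miR-200b-3p, was narrower than 40.3% against 6.51% for miR-29a-3p.

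**Figure D3:**
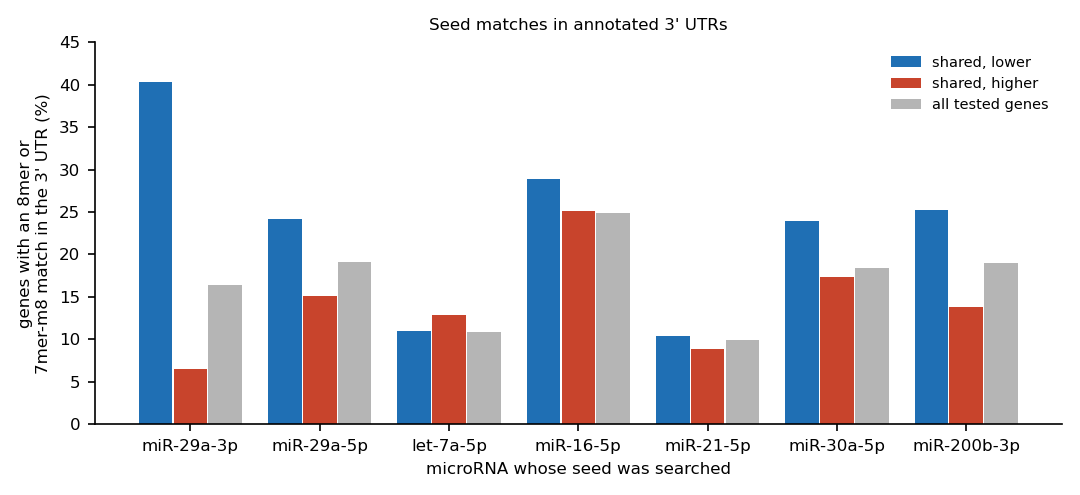
Bars give the percent of genes that hold a match (8mer or 7mer-m8) in the longest annotated 3′ UTR, for 7 microRNA seeds, among 799 shared lower (blue), 630 shared higher (red) and 11632 tested genes (grey) with a UTR. For miR-29a-3p the shares are 40.3%, 6.51% and 16.4%, and for let-7a-5p 11%, 12.9% and 10.9%.

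Median responses in both lines were lower the stronger the best site was. Genes with an 8mer numbered 401 and had a median averaged difference of -0.14, with -0.14 in the A549-labelled and -0.13 in the H1299-labelled libraries. The medians were -0.11 for 1507 genes with a 7mer-m8, -0.09 for 350 with a 7mer-A1, -0.02 for 1714 with a 6mer and 0.04 for 7660 without a match. The shared lower genes were 21.2% of the genes with an 8mer, 15.7% of those with a 7mer-m8, 14%, 8.75% and 3.63% in the remaining classes in that order. The same order held for the share of genes that were lower in both lines whatever their test, from 49.4% with an 8mer to 21.6% without a match. Within bins of 3′ UTR length, 13.6% to 21.3% of the genes with an 8mer or 7mer-m8 were shared lower genes, against 3.22% to 4.89% of the genes without any match.

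**Figure D4:**
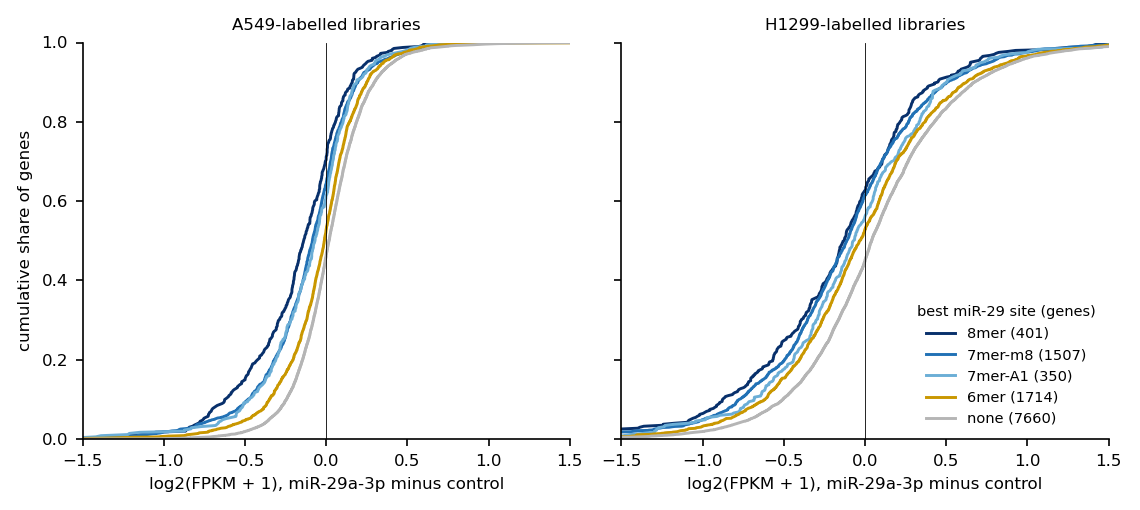
Curves give the cumulative share of genes at or below each response, on the log2(FPKM + 1) scale, by the best miR-29 site of the 3′ UTR, in the A549-labelled (left) and H1299-labelled libraries (right). The 401 genes with an 8mer have the lowest medians, -0.14 and -0.13, and the 7660 genes without a match the highest, 0.02 and 0.04.

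Among the collagens and the genes that build the matrix, a few genes fell in both lines and most did not pass. The lists were 19 collagens with 4 shared lower genes and 1 higher, 26 other matrix and basement membrane genes with 5 and 1, and 19 enzymes of collagen maturation with 5 and 1. Of all genes tested, 6.04% were shared lower and 5.01% shared higher. The averaged medians of these lists were -0.12, -0.24 and 0.06, against 0.0068 over all genes tested. In the A549-labelled and H1299-labelled libraries they were -0.14 and -0.09, -0.18 and 0.02, and -0.26 and 0.08. The response differed between the lines for 13, 18 and 12 genes of these lists, beside 37.3% of all tested genes. Calls in opposite directions numbered 5, 5 and 1, beside 551 of all 14635 genes tested. COL5A2, a chain of the fibril-regulating collagen V, was at 2.14 and 2.35 FPKM in the A549-labelled controls and at 0.714 and 0.378 with miR-29a-3p. In the H1299-labelled libraries COL5A2 was at 50.0 and 60.0 against 7.45 and 7.58. The treated libraries were at 0.243 and 0.137 times the control mean, with an averaged difference of -1.89 ± 0.31 and an adjusted p of 0.013. Leaving out the first H1299-labelled control moved that p to 0.050, just outside the threshold. Of the 5 shared collagens none was called without each single library in turn, against 5 of the 6 shared genes in each of the other lists named here.

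COL5A1, the partner chain of COL5A2, with 4 matches in its 3′ UTR, was low in the A549-labelled controls, at 0.464 and 0.467 FPKM against 0.191 and 0.179. It was at 15.8 and 16.1 against 11.9 and 12.4 in the H1299-labelled libraries, an averaged difference of -0.34 (adjusted p 0.013, and 0.050 without either of 2 H1299-labelled libraries). The basement membrane chains COL4A1 and COL4A2 fell on average, COL4A2 in the H1299-labelled libraries from 60.2 and 60.8 to 20.2 and 19.2, while its A549-labelled values were 0.814 and 0.731 against 0.454 and 0.329. COL4A1 and COL4A2 passed at adjusted p of 0.04 and 0.041, and each lost its call without any 1 of the H1299-labelled libraries and without 2 of the A549-labelled ones (0.055 to 0.12). COL17A1, a transmembrane collagen of hemidesmosomes, went the other way, from 4.30 and 4 to 6.03 and 5.17 and from 0.232 and 0.252 to 0.837 and 0.713, and it too lost its call without any 1 of the H1299-labelled libraries (0.051 to 0.055).

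Other collagens known as miR-29 targets were not shared. COL1A1 was at 0.199 and 0.289 FPKM against 0.118 and 0.0996 in the A549-labelled and at 1.33 and 1.19 against 1.48 and 1.5 in the H1299-labelled libraries. COL1A2 and COL3A1, the main fibrillar collagens of fibroblasts, were under 0.05 FPKM in every library and were not tested. COL6A1 and COL6A2 lay lower in the treated A549-labelled and higher in the treated H1299-labelled libraries, with differences of -0.64 and 0.39 for COL6A1.

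In the rest of the matrix list, FBN1, the microfibril protein fibrillin-1, fell from 12.4 and 11.5 to 4.57 and 4.56 FPKM in the A549-labelled and from 3.14 and 3.14 to 1.2 and 1.26 in the H1299-labelled libraries. LAMC1, the laminin gamma-1 chain of most basement membranes, went from 33.5 and 30.8 to 19.2 and 19.1 and from 82.7 and 81.0 to 49.0 and 49.7. The response of LAMC1 was -0.72 in each line. FSTL1, a secreted glycoprotein, NID2, the linker protein nidogen-2, and LAMB1, the laminin beta-1 chain, fell by 0.77, 0.60 and 0.40 on the averaged log2 scale. FBLN1, the matrix glycoprotein fibulin-1, rose by 0.33, a call lost without 3 of the H1299-labelled libraries (adjusted p 0.057 to 0.061). NID1, SPARC and FBN2, often named with miR-29, had differences of -1.45, -0.74 and -0.87 in the A549-labelled and 0.17, -0.09 and -0.18 in the H1299-labelled libraries, and none of the 3 passed the averaged test.

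LOXL2, described before, belongs to the list of enzymes that mature collagen, and SERPINH1 had its next largest decrease. SERPINH1, the collagen chaperone HSP47, was at 18.9 and 19.2 FPKM against 5.66 and 7.47 in the A549-labelled and at 11.1 and 12.5 against 3.99 and 5.36 in the H1299-labelled libraries. Its averaged difference was -1.30 ± 0.12 with an adjusted p of 0.0018. P3H1, a prolyl 3-hydroxylase, and P3H4 fell by 0.71 and 0.55 on the averaged log2 scale. P3H1 went from 7.36 and 6.86 to 3.59 and 3.31 and from 3.66 and 4.29 to 2.41 and 2.32. COLGALT1, which adds galactose to hydroxylysine, fell by 0.79. CRTAP, which forms a complex with P3H1, rose by 0.33, a call lost without any 1 of the H1299-labelled libraries (adjusted p 0.056 to 0.062). LOX, the founding lysyl oxidase, had differences of -0.84 and 0.20 in the lines and did not pass.

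Of 23 proteases and inhibitors of the matrix, 4 were shared lower and 2 higher, beside 6.04% and 5.01% of all genes tested. Their averaged median was 0.05. MMP2, gelatinase A, was at 6.70 and 6.17 FPKM against 2.39 and 1.98 and at 4.24 and 3.56 against 2.35 and 2.24. Its averaged difference was -0.90 (adjusted p 0.011). MMP24, ADAM19 and MMP15 were the others that fell, by 0.51, 0.33 and 0.28, and their calls were lost without 8, 7 and 8 of the 8 single libraries (adjusted p 0.053 to 0.13). PLAUR, the urokinase receptor, rose by 0.56, from 39.5 and 36.6 to 52.8 and 61.3 FPKM in the A549-labelled and from 17.3 and 15.7 to 24.8 and 24.7 in the H1299-labelled libraries.

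Reported miR-29 targets outside the matrix held no shared increase. Of 36 tested, 13 were shared lower and none higher, beside 6.04% and 5.01% of all genes tested. The averaged median was -0.21, and -0.39 and -0.09 in the lines. The 13 include CDK6 and PMP22, described before. ITGB1, the beta-1 chain of most matrix receptors, was at 70.3 and 61.9 FPKM against 27.8 and 33.8 in the A549-labelled and at 202 and 234 against 126 and 103 in the H1299-labelled libraries. CDC42, a small GTPase of cell polarity, was at 41.1 and 44.1 against 26.6 and 29 and at 23.8 and 22.3 against 15.3 and 14.7. The responses of ITGB1 (-1.08 and -0.93) and CDC42 (-0.60 and -0.59) were close in the lines. KDM5B, a histone demethylase, and SLC16A1, a lactate transporter, fell by 0.68 and 0.63 on the averaged log2 scale. The calls of 8 of the 13 held without each single library in turn. MCL1, a widely cited miR-29 target, had an averaged difference of -0.14 and did not pass (adjusted p 0.17).

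Of 11 tested writers and erasers, 3 were shared lower and none higher, beside 6.04% and 5.01% of all genes tested. The averaged median was -0.06. TDG, the glycosylase that excises oxidised methylcytosine, was at 1.95 and 1.86 FPKM against 0.734 and 0.795 and at 4.49 and 4 against 1.92 and 1.93. TET3, a methylcytosine dioxygenase with 10 matches in its 3′ UTR, was at 6.29 and 6.03 against 4.14 and 4.05 and at 6.92 and 6.78 against 3.05 and 3.05. TDG and TET3 passed the averaged test at adjusted p of 0.0013 and 0.007. TET2 fell by 0.32 (adjusted p 0.03), a call lost without any 1 of the 8 libraries. TET1, the other dioxygenase of the family, was below the filter and not tested, at 0.835 and 1.27 FPKM against 0.459 and 0.531 and at 0.145 and 0.0705 against 0.437 and 0.387. The methyltransferases DNMT1, DNMT3A and DNMT3B, named as miR-29 targets in lung cancer, had differences of -0.15, -0.25 and -0.55 in the A549-labelled and 0.55, 0.13 and 1.41 in the H1299-labelled libraries. DNMT3B was at 3.47 and 4.08 FPKM against 2.29 and 2.23 in the first line and at 0.793 and 0.833 against 3.56 and 4.07 in the second.

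In the microRNA pathway, 2 of 13 genes were shared lower and 1 higher, beside 6.04% and 5.01% of all genes tested. XPO5, the exporter of microRNA precursors, was at 17.5 and 17.2 FPKM against 13.5 and 12.2 and at 7.68 and 7.70 against 3.33 and 3.36. AGO2, the Argonaute that can cut its targets, fell by 0.50 and TNRC6A, a scaffold of the silencing complex, rose by 0.39. The XPO5 and AGO2 calls were lost without any 1 of the H1299-labelled libraries (adjusted p 0.053 to 0.055 and 0.083 to 0.088), and that of AGO2 also without the first A549-labelled control (0.052). DICER1 and DROSHA, the processing enzymes, had averaged differences of 0.07 and 0.11.

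Interferon-stimulated genes made up 7 of the 15 leading higher genes. Of 43 tested genes of that list, 27 were shared higher and none lower, beside 5.01% and 6.04% of all genes tested. In each line taken alone 24 were called higher, beside 430 of all 14635 genes tested. Of the 27, 19 were called without each single library in turn. The list's median was 0.55 averaged, 0.61 in the A549-labelled and 0.59 in the H1299-labelled libraries. Single genes were less alike: the response differed between the lines for 27 of all 43 tested, beside 37.3% of all tested genes. The IFIT genes encode antiviral proteins that bind foreign RNA. IFIT1 was at 47.0 and 50.0 FPKM in the A549-labelled controls against 110 and 108, and at 35.7 and 37.2 against 82.9 and 85.9 in the H1299-labelled libraries. IFIT1 thus stood at 2.25 and 2.32 times the control mean, with responses of 1.15 and 1.19 and an adjusted p of 0.00023.

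IFIT2 was at 60.6 and 63.1 FPKM against 177 and 170, and at 56.7 and 58.5 against 119 and 118. IFIT3 was at 156 and 162 against 477 and 479, and at 118 and 126 against 219 and 217. Both rose in each line, and further in the A549-labelled libraries (adjusted p of the difference 0.0022 and 0.00044). DDX60, a helicase that assists RNA sensing, was at 12.2 and 12.8 against 28.9 and 31.2 and at 7.11 and 7.56 against 15.1 and 16.5. ZNFX1, a helicase-like sensor on mitochondria, was at 15.8 and 15.8 against 42.9 and 41.6 and at 17.1 and 16.0 against 31.5 and 34.9.

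Other genes of the list rose as well. DDX58, which encodes the RNA sensor RIG-I, was at 34.7 and 35.9 FPKM against 89.1 and 91.4 and at 30.8 and 31.4 against 54.1 and 51.2. IRF1, an interferon-induced transcription factor, was at 2.88 and 2.83 against 6.43 and 5.73 and at 3.86 and 3.78 against 7.70 and 7.46. ISG15, a ubiquitin-like modifier, HERC6, a ligase of the HERC family, OASL, of the oligoadenylate synthetase family, and USP18, which removes ISG15, rose by 0.97, 0.86, 0.94 and 0.97 on the averaged log2 scale. Many of these genes were already high in the controls, ISG15 at 354 and 326 FPKM in the A549-labelled and 148 and 136 in the H1299-labelled control libraries.

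Some genes of the list did not follow. RSAD2 had differences of 0.47 and -0.29 in the lines and IFITM1 of 0.25 and -0.93. IFIH1, the RNA sensor MDA5, was at 39.3 and 42.2 FPKM against 93.5 and 95.8 in the A549-labelled but at 23.6 and 24.1 against 20.8 and 22.5 in the H1299-labelled libraries, and its response differed between the lines (adjusted p 0.00013). IFNB1, the interferon beta gene, was at 2.10 and 1.55 against 3.41 and 3.86 and at 8.2 and 6.57 against 9 and 8.88, an averaged difference of 0.49 that missed the threshold (adjusted p 0.051). IFNL1, a type III interferon, had differences of 0.26 and -0.89.

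The core of the interferon-stimulated response element, made of GAAA, any 2 bases and GAAA, was searched on both strands from 250 bases before to 50 bases after each RefSeq start. Stretches of 59 bases from 3 windows are printed because the genes are among the leading increases, each in the gene's direction, with the matches to this core in capitals.
IFIT1: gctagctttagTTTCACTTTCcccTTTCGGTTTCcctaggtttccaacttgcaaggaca
DDX60: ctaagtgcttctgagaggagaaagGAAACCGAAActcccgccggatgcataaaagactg
IFIT3: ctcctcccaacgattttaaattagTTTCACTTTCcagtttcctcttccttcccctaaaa
The stretches lie at chr10:89392496-89392554 for IFIT1 and chr10:89327851-89327909 for IFIT3, on the plus strand, and at chr4:168318771-168318829 for DDX60, on the minus strand, on GRCh38.p14. Among protein-coding genes, the core was found in 39 of 510 shared higher genes with a window (7.65%), in 20 of 648 shared lower genes (3.09%) and in 269 of 9620 tested genes (2.80%). Without the interferon-stimulated list the share of the higher genes was 5.10%. Of the 27 shared higher genes of that list, 20 had a window and 14 of these held the core, but with a window for 74.1% of the genes that share is void as a share of the list. Of the list's genes that were not shared, 6 of 14 with a window held it (42.9%). Over all 27305 windows of the table, 3.65% held it.

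Most genes of antigen presentation rose, by smaller amounts. The averaged median of the 20 genes tested was 0.36. Of these, 11 were shared higher and 1, CANX, a chaperone of glycoproteins, was lower, beside 5.01% and 6.04% of all genes tested. Of these 12, 5 were called without each single library in turn. HLA-E, a nonclassical class I molecule, was at 44.5 and 43.9 FPKM against 71.3 and 72.8 and at 38.2 and 37.6 against 59.3 and 60.4. TAP1, a peptide transporter, was at 15.7 and 14.4 against 22.2 and 21.6 and at 22 and 20.4 against 35.7 and 36.2. HLA-E and TAP1 rose in both lines, by 0.67 and 0.62 averaged, and PSMB9, a subunit of the immunoproteasome, rose by 0.73. HLA-B and HLA-C, classical class I genes, rose by 0.44 and 0.50, with the limit that near-identical copies can share reads. B2M, their partner chain, was at 50.4 and 54.2 against 44.7 and 85.8 in the A549-labelled libraries, which overlapped, and did not pass.

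Chemokines and inflammatory genes held shared increases and no shared decrease, where 5.01% of all genes tested were shared higher and 6.04% lower. Of 31 tested, 12 were shared higher, of which 5 were called without each single library in turn, and the median was 0.61 averaged, 0.31 in the A549-labelled and 0.75 in the H1299-labelled libraries. ICAM1, an adhesion molecule for leukocytes, rose by like amounts, from 33.6 and 31.5 to 60.8 and 58.0 FPKM and from 5.56 and 6.33 to 12.6 and 12.8. CXCL1, a neutrophil chemokine, went from 6.38 and 6.11 to 12.3 and 10.4 and from 78.5 and 76.5 to 369 and 354. CXCL8, interleukin-8, went from 2.08 and 2.01 to 3.83 and 4.03 and from 45.3 and 36.0 to 122 and 103. The CXCL1 response differed between the lines (0.76 and 2.21, adjusted p 0.00027) and its shared call was lost without any 1 of the H1299-labelled libraries (0.059 to 0.063).

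PTGS2, cyclooxygenase-2, NFKBIA, the inhibitor of NF-kappaB, and TNFAIP3, a brake on the same pathway, rose by 0.66, 0.50 and 0.53, the NFKBIA call being lost without 5 of the 8 single libraries (adjusted p 0.054 to 0.074). SOD2, the mitochondrial superoxide dismutase and an NF-kappaB target gene, was at 5.73 and 5.37 FPKM against 10.5 and 10.9 and at 30.0 and 27.8 against 52.2 and 49.2. Its responses of 0.84 and 0.79 were close in the lines, although its 3′ UTR holds a miR-29 match. CCL2, CXCL10 and IL1A had differences of -0.04, -0.47 and -0.05 in the A549-labelled and 2.04, 1.81 and 1.67 in the H1299-labelled libraries, and none of the 3 passed the averaged test. A kappaB motif, GGGA, any base and TTTCC, was searched on both strands of the same promoter windows. It was found in 6 of the 11 shared higher genes of the list with a window (CXCL1, CXCL2, CXCL3, IL6, NFKBIA and TNFAIP3). Of these 6, only TNFAIP3 kept its shared call without each single library in turn. No share was computed for the list's genes that were not shared. The motif was held by 12 of all 510 shared higher genes (2.35%), 0 of 648 shared lower genes and 62 of 9620 tested genes (0.644%).

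**Figure D5:**
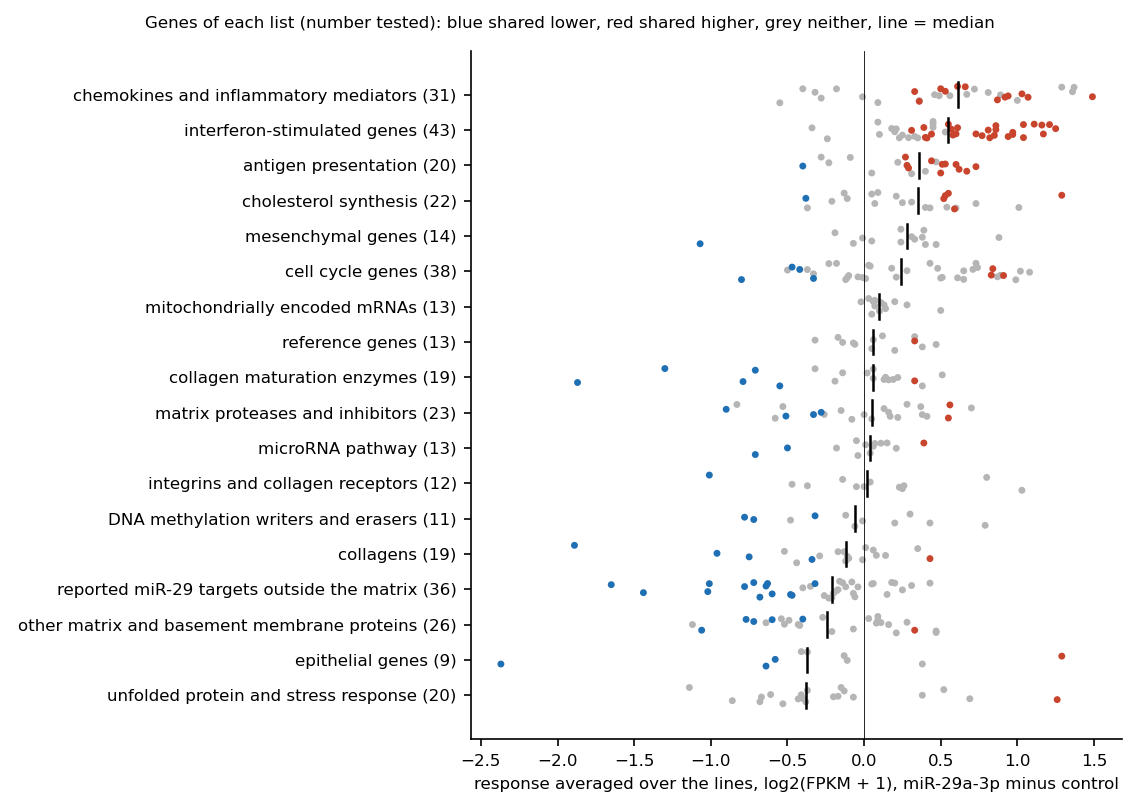
Each point is a gene of a list, at its averaged response on the log2(FPKM + 1) scale, blue where it is shared lower, red where it is shared higher and grey otherwise, with a vertical line at the list's median. The interferon-stimulated genes (median 0.55, 27 of 43 shared higher) and the chemokines (0.61, 12 of 31) lie right of 0, and the reported miR-29 targets outside the matrix (-0.21, 13 of 36 shared lower) lie left of it.

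Several leading increases belong to none of the lists. EGR1, an immediate early transcription factor, was at 6.79 and 7.74 FPKM against 18.7 and 17 in the A549-labelled and at 1.29 and 1.49 against 4.66 and 4.96 in the H1299-labelled libraries. It headed the higher genes by the smaller of its responses, 1.19 and 1.28, with an adjusted p of 0.00068. PMAIP1, the death-promoting protein NOXA, was at 42.3 and 27.6 against 70.0 and 74.4 and at 17 and 16.3 against 33.9 and 36.1. RHEBL1, a relative of the growth-signalling GTPase RHEB, was at 3.68 and 3.84 against 9.25 and 11.7 and at 1.56 and 1.70 against 4.41 and 4.55. The first A549-labelled control library of PMAIP1 lay above the second, and both lay below the treated ones.

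CIPC, an inhibitor of the circadian CLOCK protein, went from 1.18 and 1.27 to 7.01 and 6.37 FPKM in the A549-labelled and from 1.44 and 1.33 to 2.83 and 4.52 in the H1299-labelled libraries. That is 5.47 and 2.66 times the control mean, and the responses differed (adjusted p 0.03). TENT5A, a poly(A) polymerase of the TENT5 family, and PLEKHA4, a plasma membrane adaptor, rose by 0.97 and 0.96 on the averaged log2 scale.

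Of 38 cell cycle genes, 4 were shared lower and 3 higher, beside 6.04% and 5.01% of all genes tested. Another 8 were called in opposite directions, beside 551 of all 14635 genes tested. The medians were -0.20 in the A549-labelled and 0.73 in the H1299-labelled libraries. PLK1, a mitotic kinase, was at 19.3 and 19.0 FPKM against 11.5 and 10.2 and at 3.03 and 4.54 against 1.52 and 1.79. CCNB1 and CCNB2, the mitotic cyclins, fell by 0.33 and 0.47, and TOP2A, a DNA topoisomerase, by 0.42, with the CCNB1 and TOP2A calls lost without 7 and 8 of the 8 single libraries (adjusted p 0.051 to 0.081). CDC25A, a phosphatase of the G1 to S step, rose from 9.82 and 7.24 to 14.1 and 14.3 and from 0.737 and 0.495 to 2.07 and 2.35. CCND1 and CCND3, G1 cyclins, rose by 0.91 and 0.83, and their calls were each lost without 7 of the 8 single libraries (adjusted p 0.053 to 0.13).

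The unfolded protein and stress response was split between the lines. Of 20 genes, 9 were called in opposite directions, beside 551 of all 14635 genes tested, with medians of 0.34 and -0.82. SESN2, a stress-induced regulator of growth signalling, was the 1 shared gene, and it was higher, beside 5.01% of all genes tested. SESN2 was at 10.9 and 9.90 FPKM against 42.1 and 41.9 and at 24.6 and 25.4 against 38.9 and 38.6. Without any single A549-labelled library its adjusted p was 0.051 to 0.055 and the call was lost.

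Cholesterol genes held 5 shared higher and 1 shared lower of 22, beside 5.01% and 6.04% of all genes tested. Their median was 0.35 averaged, 0.07 in the A549-labelled and 0.71 in the H1299-labelled libraries. MSMO1, a sterol methyl oxidase, was at 7.32 and 7.48 FPKM against 11 and 13.3 and at 4.43 and 4.20 against 19.8 and 18.8. FDPS, farnesyl diphosphate synthase, MVD, a mevalonate enzyme, and HSD17B7, which also acts on sterols, rose by 0.59, 0.52 and 0.53, and PMVK, phosphomevalonate kinase, fell by 0.38. All 6 calls were lost without any 1 of the H1299-labelled libraries, those of MVD and PMVK also without 2 of the A549-labelled ones (adjusted p 0.054 to 0.13 over these fits).

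Of 9 epithelial genes, CLDN1, OCLN, a tight junction protein, and KRT7, a simple-epithelium keratin, were shared lower and KRT19 shared higher. Beside this and the next 2 lists, 6.04% of all genes tested were shared lower and 5.01% shared higher. KRT19 went from 1.5 and 1.66 to 3.13 and 2.77 FPKM and from 4.34 and 4.43 to 19.9 and 20.1. The calls of KRT19 and OCLN were lost without any 1 of the H1299-labelled libraries (adjusted p 0.072 to 0.073 and 0.13), that of OCLN also without 3 of the A549-labelled ones (0.053 to 0.076), and that of KRT7 without 3 of the H1299-labelled ones (0.065 to 0.069). Of 14 mesenchymal genes, AXL, a receptor tyrosine kinase, was shared, at 172 and 171 against 111 and 105 and at 143 and 145 against 50.7 and 51.2. AXL has no seed match, and its fall was larger in the H1299-labelled line (adjusted p of the difference 0.00019). ITGB1 was the single shared gene among 12 integrins and collagen receptors.

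In the lists meant as references 1 gene was shared, where 5.01% of all genes tested were shared higher and 6.04% lower. None of 13 mitochondrially encoded mRNAs was shared, with an averaged median of 0.10, and of 13 reference genes GAPDH was shared, at 1220 and 1200 FPKM against 1370 and 1330 and at 578 and 603 against 841 and 838. The GAPDH call was lost without 7 of the 8 single libraries (adjusted p 0.051 to 0.11). ACTB and RPLP0 had averaged differences of 0.12 and -0.17.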

How the data were processed

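RNA of A549 and H1299 cells was sequenced in 8 libraries, extracted with TRIzol and prepared with a VAHTS kit (labels' protocols). Per gene and library, the authors deposited FPKM values. StringTie and GRCh38 are named in the submitters' processing notes; for the aligner, annotation, strand setting and versions, the entry is: not given in the sources used here. Genes missing from a line's block of the table were taken as 0.

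From these values, log2(FPKM + 1) was computed for genes at 1 FPKM or more in at least 2 of 8 libraries and tested in R 4.3.3 with limma 3.58.1, using a variance trend, Benjamini-Hochberg adjustment over all 14635 genes and a threshold of 0.05. The averaged model had treatment and line (5 residual and 2.44 prior degrees of freedom), and the model with a mean for each group 4 and 2.36. The averaged model was tested on simulated data in which the changed genes moved by the same amount in both lines. Responses that differ between the lines were not simulated. FPKM are not counts, so no count test was run. Depth was estimated from genes with 1 transcript, in which 87.1 to 93.1% of the values were whole fragment numbers within 0.02. Intervals on depth were not computed, and replicates of a group differed by a median of 0.0787 to 0.0878 on the log2 scale.

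The members and lists were chosen with earlier results of these data known. Named genes were the 15 lower and 15 higher protein-coding members, at 5 FPKM or more in a group and without overlap in either line, with the largest smaller change of the lines, then up to 4 members per list. The list members were also chosen for having no overlap in either line. Other genes were named after their values were seen, to complete a count or as well-known genes that did not pass. Motif searches, gene families, pseudogene comparisons and leave-one-out calls of all list members were also added then. Promoter genes were matched by current symbol or unique synonym. The alternatives were another pseudocount, 2 other filters, rescaled libraries, no variance trend, the replicate block and leaving out each library. Some genes of the lists are counted but not reported by name here.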

Additional observations from a re-analysis of the deposited data

Results flagged for a closer look

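Of the 30 leading genes, 9 responded by amounts that differed between the lines by the test of the difference itself (limma, adjusted over all genes). The values are log2 responses, A549-labelled minus H1299-labelled, with 2 libraries a group. Among the lower genes a positive value means a larger fall in the H1299-labelled libraries. It was 2.51 for KRT80 (adjusted p 0.00013), 2.23 for CLDN1 (adjusted p 3.4e-05), 1.63 for COL5A2 (adjusted p 0.00098), 0.77 for PMP22 (adjusted p 0.026) and 0.51 for CDK6 (adjusted p 0.024). Among the higher genes it means a larger rise in the A549-labelled libraries. It was 0.84 for CIPC (adjusted p 0.03), 0.75 for IFIT3 (adjusted p 0.00044), 0.45 for IFIT2 (adjusted p 0.0022) and 0.41 for ZNFX1 (adjusted p 0.012). COL5A2 started from 2.14 and 2.35 FPKM in the A549-labelled controls and from 50.0 and 60.0 in the H1299-labelled ones, so the added 1 FPKM weighs more in the first line.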

How the results depend on the processing

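Averaged calls, which are also the genes that moved the same way, numbered 733 higher and 884 lower. Without a filter they were 368 and 473, with a mean of at least 5 FPKM the higher genes were 464, and with a replicate block 25 and 60, of which 84 were shared genes. Same-numbered libraries did not deviate together (correlations of -0.0367 to 0.0625 over 6 pairs of groups), so they share a number and no pairing is given. The shared genes with a called difference between the lines, 563, became 175 without a filter and 13 with the replicate block. Without 1 library at a time, the higher calls were 209 to 483, the lower calls 312 to 660, genes called in each line 216 to 327 higher and 315 to 479 lower, and shared genes with a called difference 93 to 319; fewer libraries leave fewer degrees of freedom. The other settings moved no count by over 1.5 times. Over 73 named genes and 14 alternatives, 833 of 1008 values kept direction and call, 175 lost the call, over 45 genes, and 0 reversed. With the replicate block KRT80 was at an adjusted p of 0.12, CLDN1 0.1, COL5A2 0.091, CIPC 0.065, IFIT3 0.062, PMP22 0.061, SGK1 0.06 and PMAIP1 0.052. Of 112 shared genes in the lists, 55 were called in every leave-one-out fit. The median of all genes moved by at most 0.013 in size. Genes near 1 FPKM rest on few fragments, and their log2 differences are understated.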

Other observations

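Several shared genes outside the lists were looked up after their values were seen. NRAS, a RAS oncogene, was at 32.3 and 33.6 FPKM against 17.9 and 20.4 in the A549-labelled and at 28.0 and 28.6 against 13.3 and 13.4 in the H1299-labelled libraries. BAK1, a pore-forming protein of apoptosis, was at 15.4 and 14.1 against 6.28 and 6.30 and at 8.81 and 7.80 against 4.85 and 3.85. DOT1L, a histone methyltransferase with 5 seed matches in its 3′ UTR, was at 6.41 and 6.36 against 3.39 and 3.54 and at 4.31 and 4.62 against 1.70 and 1.71. The averaged differences of NRAS, BAK1 and DOT1L were -0.89, -0.96 and -0.87. BDNF, a neurotrophin, and PIM1, a survival kinase, fell by 0.84 and 0.77 on the averaged log2 scale without an 8mer or 7mer-m8 match. FASN, fatty acid synthase, rose from 150 and 139 to 214 and 217 and from 13.6 and 13.8 to 31.5 and 31.7. C3, the central complement protein, rose by 0.83 and LIN28B, an inhibitor of let-7 maturation, by 0.64.

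Gene families were counted after the fact and without a test. Over all tested genes, 5.01% were shared higher and 6.04% shared lower. Of 44 TRIM genes tested, 9 were shared higher and none lower, of 12 PARP genes 4 and none, and all 3 tested APOL genes were higher, with APOL2 and APOL6 at averaged differences of 0.78 and 0.75. Of 79 ribosomal protein genes 1, RPS24, was shared, and it was lower. Of 361 ZNF genes, 17 were higher and 10 lower.

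Some processed pseudogenes stood with their parents. Of 28 shared lower processed pseudogenes with a tested parent, 14 had a parent that was shared lower, while 29 of 372 parents were. Of 16 shared higher ones, 4 had a parent that was shared higher. MORF4L1P1 had responses of -0.80 and -0.76 and MORF4L1 of -0.78 and -0.75, and CDC42P6 of -0.62 and -0.65 beside -0.60 and -0.59 for CDC42. Reads of near-identical copies cannot be told apart in these values.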
